A study of Rattus norvegicus with 4 samples.

Results

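The gracilis, a strap-like muscle of the inner thigh, was compared at the end and at the start of a recovery series: injured muscle after 4 h of ischemia and 14 days of reperfusion against injured muscle after 4 h of ischemia and 1 day of reperfusion. All animals were male Sprague-Dawley rats, a common outbred laboratory strain. On each array the injured muscle was labelled with Cy5 (red) and the muscle of a sham-operated control with Cy3 (green). Each day had 1 array with 1 injured and 1 sham sample and no dye swap, so no value here has a replicate, no test was made, and a difference is described by its size alone. Nothing in the labels tells if a single sham RNA served for both arrays. The array of day 14 was scanned in a session of its own, whereas those of days 1, 3 and 7 shared one, so day 14 and its scan session cannot be told apart.

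Of 35613 genes with a probe on the array, 15613 were well above background in all 4 spots, that is in the injured and the sham channel on both days. These genes make up the comparison, and 8930 of them carry a gene symbol. The measure is the difference of log2 ratios: the injured-to-sham log2 ratio of day 14 minus that of day 1. A difference of at least 1, which is 2-fold, is called higher or lower on day 14. The same genes were read in a direct comparison of the injured channels of the 2 arrays, which leaves the sham channels out. Between spots of 1 probe the difference had an SD of 0.0867 (40 probes, each printed 10 times). This is spot noise within arrays and does not cover differences between animals.

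A muscle that has lost its blood supply for hours loses many of its fibres. Neutrophils enter first and macrophages follow, and both clear the debris. Satellite cells, the stem cells of muscle, divide and fuse into new fibres, which pass through an embryonic set of contractile proteins before they take on adult ones, while fibroblasts lay down collagen around them.

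Day 14 was set apart from day 1 by high transcripts of muscle fibres, of their energy metabolism and of extracellular matrix, and by low transcripts of neutrophils, macrophages and the chemokines that recruit them. By the difference of injured-to-sham ratios, the probe for embryonic myosin, Myh3, was 173-fold higher and that for the neutrophil calcium-binding protein S100a8 was 40.2-fold lower. Higher genes numbered 1763 (11.3% of those measured) and lower genes 901 (5.77%). In the injured channels alone, 1694 genes (10.8%) were higher by that size and 1299 (8.32%) lower. Both measures called 1559 genes (9.99%) higher and 862 (5.52%) lower, and 4 genes past 2-fold in the difference of ratios lay on the other side of 0 in the injured channels. Past 4-fold in the difference of ratios were 577 higher genes (3.7%) and 116 lower ones (0.743%). The sham channels of the 2 days differed at least 2-fold for 96 genes (0.615%).

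How many genes were lower depended on the scaling. With the loess normalization used here 66.2% of calls were higher, with the scanner software's own log ratio 52.6%, and with median centring 38.7%, which put the median of all genes at -0.16 instead of 0.05. In the injured channels the share was 56.6%, and 32.3% with median scaling, which put the median at -0.21.

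The largest class of higher genes lay near sham on day 14 and below it on day 1. Of the 1559 higher by both measures, 675 (43.3%) lay within 2-fold of sham on day 14 and at least 2-fold below it on day 1. A further 352 (22.6%) were above sham on day 14 and within 2-fold of it on day 1, and 349 (22.4%) were within 2-fold on both days. Their median log2 ratio was -1.1, -0.65, 0.31 and 0.70 on days 1, 3, 7 and 14, and for 903 of them the largest of the 3 steps was that between days 3 and 7. Of the 862 lower genes, 490 (56.8%) were within 2-fold of sham on both days, 182 (21.1%) were below sham on day 14 and within 2-fold of it on day 1, and 146 (16.9%) were within 2-fold on day 14 and above sham on day 1. Their median was 0.67, 0.16, -0.33 and -0.74 on the 4 days.

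**Figure D1:**
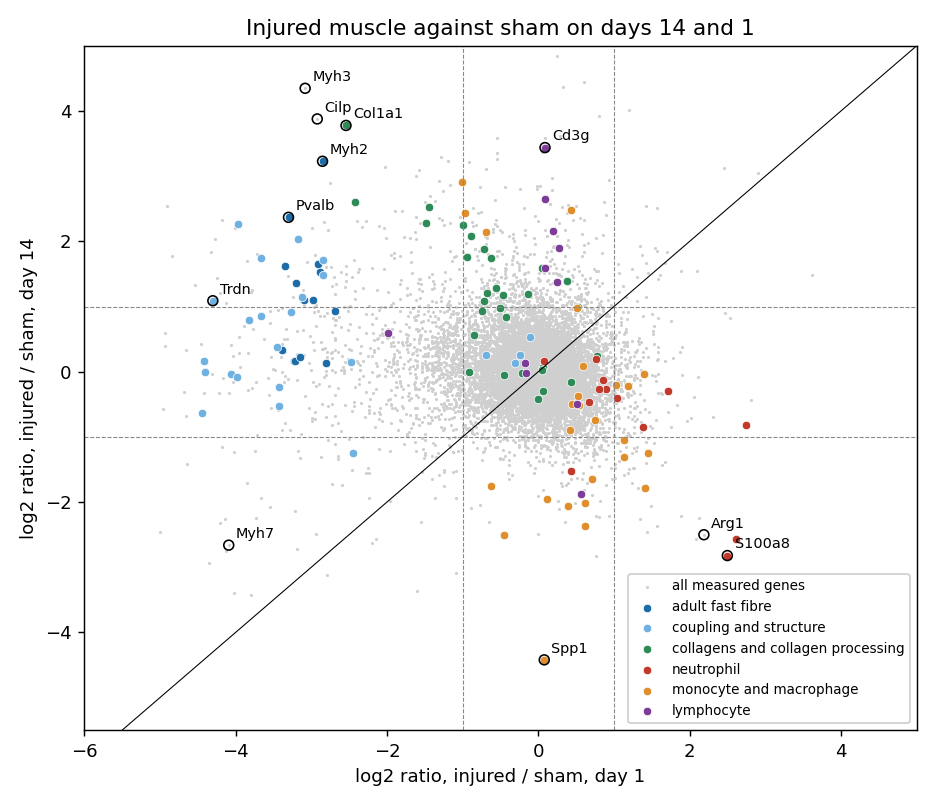
Log2 ratio of injured to sham muscle on day 14 (vertical axis) against that on day 1 (horizontal axis) for the 15613 measured genes in grey, with 6 gene lists in colour. Dashed lines mark 2-fold from sham, the solid line equal ratios on both days, and black rings the labelled genes. Fast-fibre genes and most coupling genes lie at the left, well below sham on day 1, and most neutrophil and macrophage genes lie below the solid line, with the complement genes C1qa, C1qb and C1qc above it.

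A small group crossed sham altogether. Genes at least 2-fold above sham on day 14 and at least 2-fold below it on day 1 numbered 159 (1.02% of those measured), with a median log2 ratio of -1.92, -1.36, 0.98 and 1.53 on days 1, 3, 7 and 14. For 108 of them the largest step fell between days 3 and 7. Genes that crossed in the opposite direction numbered 41 (0.263%), with medians of 1.31, -0.26, -0.82 and -1.48, and for 31 of them the largest step fell between days 1 and 3.

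Among the genes with a symbol that crossed upwards, the largest difference was that of Myh3, the myosin heavy chain of developing and regenerating fibres. Its normalized log2 level was 14.59 in injured muscle on day 14 and 7.26 in injured muscle on day 1, against 10.24 and 10.34 in the sham channels of those days. The difference of ratios was 7.43, and a second Myh3 probe gave 5.76. Myh3 thus stood far above sham on day 14 and far below it on day 1, while the sham channels lay close together. Cilp, a secreted protein of cartilage and connective tissue, had a level of 13.88 in injured muscle on day 14 and 7.2 on day 1, against 10.12 in sham on day 1 and a sham channel of day 14 that differed from it by -0.11. Its difference was 6.79, but its other probe gave 3.06.

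Ampd1, the muscle form of AMP deaminase, had a level of 15.45 on day 14 and 9.44 on day 1, against 13.67 and 14.28 in sham, a difference of 6.61. Ddit4l, an inhibitor of mTOR signalling found in skeletal muscle, differed by 6.51, and Sln (sarcolipin), a small inhibitor of the sarcoplasmic calcium pump, by 6.17. The Z-disc protein Ldb3 (other probes 4.26 and 5.33) differed by 6.23 and the muscle deaminase family member Apobec2 by at least 6.22, a bound because a spot was saturated. For all of these the injured level of day 14 lay above both sham levels and that of day 1 below both.

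Col1a1, a chain of type I collagen, had sham channels farther apart than the other genes just named. Its level was 15.56 on day 14 and 11.89 on day 1 in injured muscle, against 11.78 and 14.43 in sham. The difference of ratios was at least 6.32, of which 3.67 came from the injured channels and the rest from a sham channel lower on day 14. Its 2 other probes gave 3.93 and 4.21.

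The genes that crossed downwards were led by inflammatory genes. S100a8 had a level of 6.86 in injured muscle on day 14 and 12.45 on day 1, against 9.68 and 9.94 in sham, and its partner S100a9 had 6.68 and 12.24, against 9.25 and 9.63. Their differences were -5.33 and -5.18. Both injured levels of day 14 lay below both sham levels. Arg1 (arginase), which macrophages of repairing tissue express, differed by -4.69. Ccl2 and Ccl7, chemokines that recruit monocytes, differed by at least 4.63 downwards (saturated on day 1) and by -3.93. The stromelysin Mmp3 differed by -4.11, the receptor for interleukin 33, Il1rl1, by -3.90, and Pgap6 by -3.60.

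**Figure D2:**
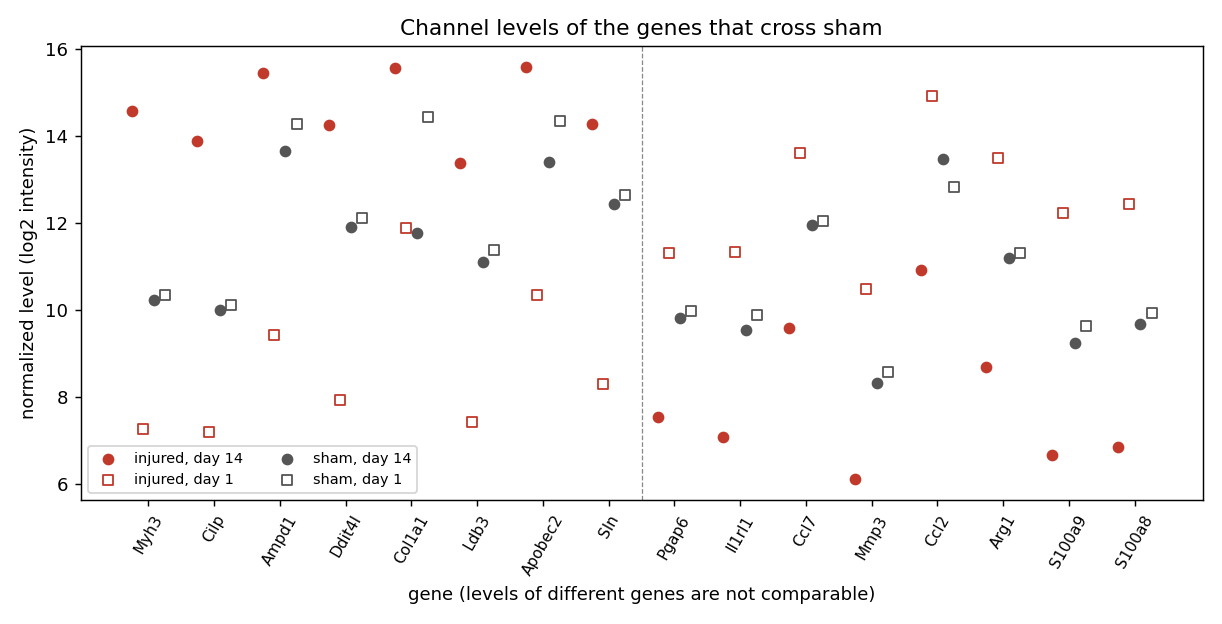
Normalized level (log2 intensity) in injured muscle on days 14 and 1 and in sham on days 14 and 1 for the 8 genes with a symbol and the largest difference that crossed upwards (left of the dashed line) and the 8 that crossed downwards (right). Except for Col1a1, whose sham channels were 11.78 on day 14 and 14.43 on day 1, the injured levels moved far more than the sham levels.

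Contractile genes of adult fast fibres, which drive rapid and forceful contraction, were all higher: 14 of the 14 measured by the difference of ratios and 14 of 14 in the injured channels, with a median difference of 4.13 (0.05 over all measured genes). Their median log2 ratio was 1.1 on day 14 and -3.12 on day 1. In the injured channels the median was 2.67, because the sham channels were themselves lower on day 14 by a median of 1.21. Myosins of the single fibre types are read by probes of related genes on one chromosome, and their sequences are given because the values turn on whether the probes tell the genes apart (rn4, plus strand, 60 bases each, from the array files, at chr10:53889243-53889302, chr10:53953933-53953992 and chr10:53799519-53799578, the last being the second Myh3 probe):
Myh2: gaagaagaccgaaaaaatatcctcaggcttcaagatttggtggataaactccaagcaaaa
Myh4: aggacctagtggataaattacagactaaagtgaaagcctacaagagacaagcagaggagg
Myh3: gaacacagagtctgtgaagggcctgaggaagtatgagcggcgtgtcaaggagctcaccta
At the ungapped alignment with the most matching bases the Myh2 and Myh4 probes shared 26 of 56. Each shared 22 of 59 with the Myh3 probe shown. Such a count of matches favours long overlaps. At a shorter overlap the Myh2 and Myh4 probes both hold the run gtggataaa and match at a larger share of the aligned bases. The counts therefore do not show that the probes tell these genes apart. The first Myh3 probe, which gave the difference of 7.43, is not shown. It shared 26 of 55 bases with the Myh2 probe and 17 of 53 with the Myh4 probe. The probe described as myosin heavy chain type IIx, named below, was not aligned. How far each probe binds the transcripts of the other myosins was not tested.

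Myh2, the myosin of type IIa fibres, had a level of 15.05 on day 14 and 9.78 on day 1 in injured muscle, against 11.82 and 12.64 in sham, a difference of 6.08. Myh4, the myosin of type IIb fibres, had 15.31 and 12.80, against 13.77 and 15.68, so that of its difference of 4.42 the injured channels gave 2.51. A probe described in the array file as myosin heavy chain type IIx, named here after its value was seen, had the largest difference of all measured genes, at least 7.46. Its level was 15.59 and 9.59 in injured muscle, against 13.04 and 14.50 in sham. Parvalbumin (Pvalb), the calcium buffer of fast fibres, differed by 5.67 and lagged behind the myosins, with log2 ratios of -3.30, -5.18, -3.38 and 2.37 on days 1, 3, 7 and 14. The light chain Myl1 differed by 4.98, the creatine kinase Ckm by at least 3.40 and the skeletal actin Acta1 by 3.37.

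Slow-fibre genes were mostly higher too, but their median was still below sham on day 14. Of 15 measured, 11 were higher and 1 lower, with a median difference of 1.88, and their median log2 ratio was -1.23 on day 14 and -4.02 on day 1. Myh7, the slow myosin, had a ratio of -4.09, -4.24, -3.99 and -2.66 on the 4 days, and its spots were saturated in ways that leave the size of its difference undetermined. Myoglobin (Mb), at a ratio of 0.29 on day 14, differed by at least 4.14, the thick-filament protein Mybpc1, at -0.15, by 3.58 (other probe 2.94) and the Z-disc protein Csrp3 by 3.03. Tropomyosin Tpm3 was the lower member, at -1.57.

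Genes of excitation-contraction coupling and of the fibre's scaffold had differences about as large: 20 of 24 measured were higher, none was lower, and the median difference was 4.11. Triadin (Trdn), which anchors calsequestrin at the calcium release channel, had a level of 14.69 on day 14 and 9.71 on day 1, against 13.60 and 14.01 in sham, a difference of 5.39. Smpx, a small protein of striated muscle, differed by 5.41, titin (Ttn) by 4.63, nebulin (Neb) by 4.59 and the ryanodine receptor Ryr1 by 4.19. The junctophilins Jph1 (0.64) and Jph2 (0.43) stayed under 2-fold, as did dystrophin (Dmd, 0.95). Tmod4, a tropomodulin of muscle and also among the 15 highest, differed by 5.42.

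The MEF2 factors are transcription factors of muscle, and their motif was searched on both strands of 300-base promoters (250 bases before to 50 after the gene start, RefSeq, GRCr8). It was found in 5 of 18 promoters of coupling genes (27.8%), 2 of 13 of fast-fibre genes (15.4%) and 1100 of 33469 promoters in all (3.29%). Genes at least 4-fold higher by both measures held it in 26 of 266 promoters (9.77%), those at least 4-fold lower in 0 of 67, and measured genes in 137 of 7284 (1.88%). The following windows are shown as the matches among strongly higher genes, with the match in capitals, written along the gene's own strand (Myh4 at chr10:52421937-52421976, plus strand, Ttn at chr3:82332252-82332291, minus strand, Smpx at chrX:41107214-41107253, minus strand, Cav3 at chr4:147137900-147137939, plus strand):
Myh4: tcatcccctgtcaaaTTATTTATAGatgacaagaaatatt
Ttn: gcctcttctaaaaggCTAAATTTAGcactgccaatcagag
Smpx: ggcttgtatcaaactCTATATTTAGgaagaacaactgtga
Cav3: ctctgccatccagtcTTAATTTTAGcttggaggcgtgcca
A match describes the letters of a promoter and does not show that a factor is bound there.

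Regeneration genes were mostly higher, with a median difference of 2.17 and 12 of 16 measured members higher and 2 lower. Igf2, a growth factor of fetal and regenerating muscle, had a level of 13.02 on day 14 and 8.41 on day 1, against 10.02 in sham on both days, a difference of 4.61. The embryonic troponin Tnnt2 differed by 4.34 and the cardiac actin Actc1, also a fetal isoform of skeletal muscle, by 4.30. These genes stood above sham on day 14 yet were higher still on day 7: Myh3 had log2 ratios of -3.08, -0.24, 5.08 and 4.35 on days 1, 3, 7 and 14, and Igf2 had -1.62, -0.77, 4.61 and 3.00. Myogenin (Myog), a factor of myoblast differentiation, differed by 2.52. Its log2 ratio was -3.74, -1.45, -0.02 and -1.22 on days 1, 3, 7 and 14, near sham on day 7 and below it on day 14. Myod1, which acts earlier in that lineage, had nearly equal ratios on both days (0.11 on day 14 and -0.18 on day 1), and its small difference of 0.29 turned to -0.21 with median centring. Its highest value was 1.95 on day 3.

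At the neuromuscular junction 7 of 10 measured genes were higher and none lower, with a median difference of 1.80. Chrng, the fetal subunit of the acetylcholine receptor, which adult innervated muscle replaces by Chrne, differed by 4.04. Its log2 ratio was -2.73, -0.38, 3.07 and 1.31 on days 1, 3, 7 and 14. The subunits Chrna1 and Chrnd differed by 2.91 and 2.55, and Chrne itself by 1.92.

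Many genes of energy metabolism were higher. Of 33 measured genes of oxidative phosphorylation, 30 were higher and none lower, with a median difference of 1.48. The fraction was 12 of 21 for the tricarboxylic acid cycle (median 1.11), 19 of 25 for the uptake and oxidation of fatty acids (1.74) and 13 of 26, with 3 lower, for glycolysis and glycogen (0.98). With median centring the medians of the first 2 fell under 2-fold, to 0.95 for oxidative phosphorylation and 0.59 for the tricarboxylic acid cycle, whose median in the injured channels was 0.76. In that cycle Idh2 differed by 2.52 (other probe 1.81) and Sucla2 by 2.14 (other probe 1.60). Cox6a2, a muscle subunit of cytochrome oxidase, had a level of 13.13 on day 14 and 9.74 on day 1, against 12.68 and 12.73 in sham, a difference of 3.43, and the muscle isoform Cox8b differed by 4.89 (its 2 other probes by 0.89 and 1.03). Cpt1b, which passes fatty acids into muscle mitochondria, differed by 4.28 with one probe and 0.43 with the other.

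In glycolysis, several muscle isoforms and some general ones lay on opposite sides of 0. Pgam2, the muscle phosphoglycerate mutase, differed by 5.13, the muscle phosphofructokinase Pfkm by 4.74, the muscle enolase Eno3 by at least 4.36 and the insulin-responsive glucose transporter Slc2a4 by 4.35. For Eno3 the injured channels gave 2.5, and its sham channel was lower on day 14. Of their widely expressed counterparts, chosen after their values were seen, Pgam1 was at -1.28, Eno1 at -1.39, the transporter Slc2a1 at -1.35 and Pfkl at -0.71. Other members not restricted to skeletal muscle had positive differences, 3.53 for Ldhb, 1.80 for Tpi1, 1.74 for Gapdh and 0.42 for Pkm. The hexokinase Hk2 (-0.26) and the phosphoglucomutase Pgm1 (-0.99) had negative ones.

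Genes of muscle wasting were also higher more often than lower, 9 of 18 against 1, with a median of 1.04 that was 0.71 with median centring and 0.81 in the injured channels. Their median log2 ratio was nonetheless below sham on both days, at -0.37 on day 14 and -1.61 on day 1. On day 14 Trim63 had a ratio of -0.59 and Fbxo32 one of -0.54. The ubiquitin ligase Trim63 (MuRF1) differed by 2.85 (other probe 1.54) and Asb2, a ligase subunit of muscle, by 4.99, whereas the other classic wasting ligase Fbxo32 (atrogin-1) differed by 0.72. The lower member was the lysosomal protease Ctsl, at -3.03 and saturated in 1 spot or more. Of this the injured channels gave -1.49, and the rest came from a sham channel higher on day 14. The 25 measured genes of the proteasome, the machine that degrades ubiquitin-tagged proteins, lay between -0.46 and 0.55, with none past 2-fold and a median of 0.10 that became -0.50 with median centring.

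**Figure D3:**
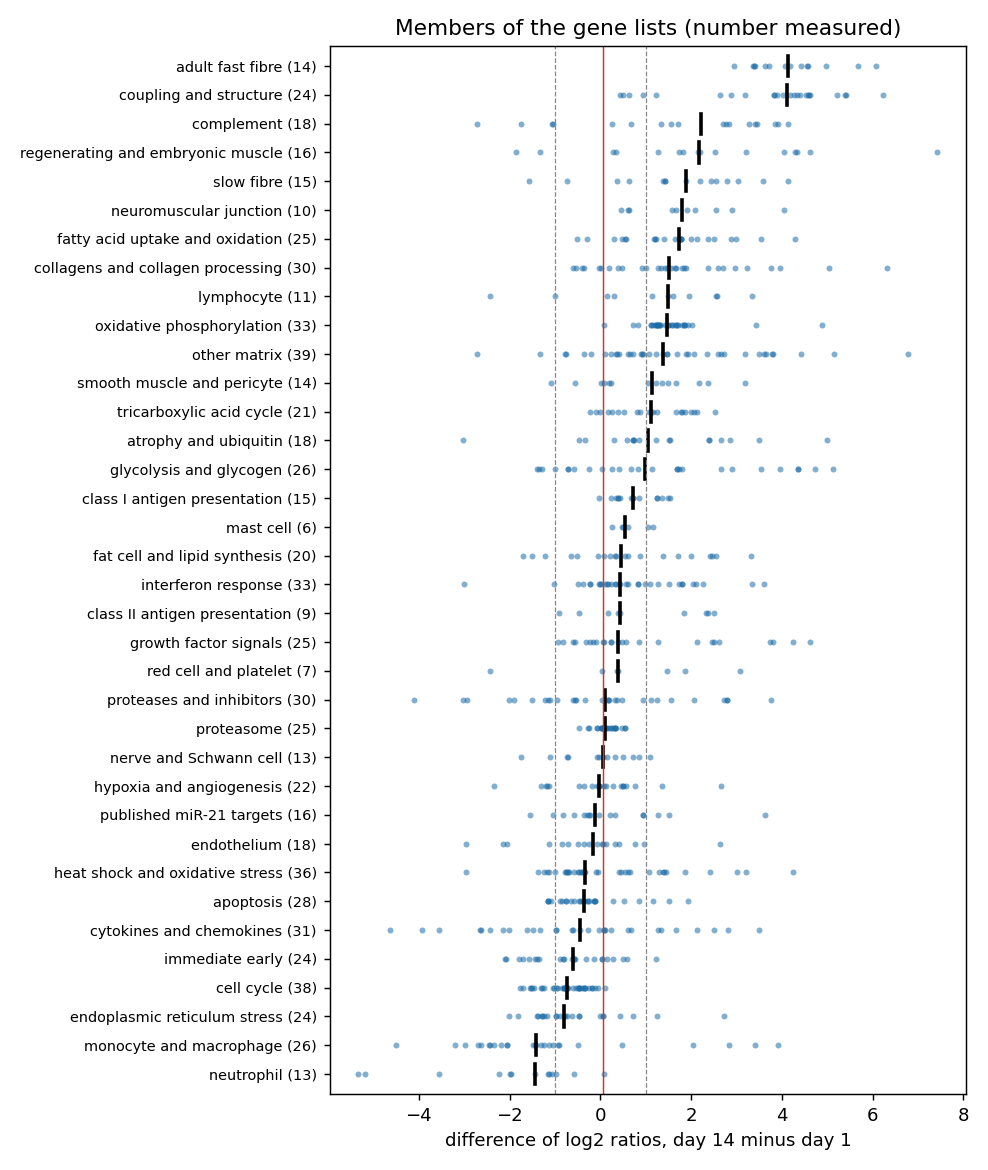
Difference of log2 ratios, day 14 minus day 1, for each measured member of the 36 gene lists (points), with each list's median (black bar) and the number measured in brackets. Dashed lines mark 2-fold and the red line the median of all measured genes, 0.05. Fibre lists stand at the top with medians of 4.13 and 4.11, and macrophage and neutrophil lists at the bottom with -1.43 and -1.44.

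Of 13 measured neutrophil genes, 10 were lower and none higher, with a median difference of -1.44. The list's summed level in injured muscle was 3070 on day 14, against 24100 on day 1 (linear normalized intensity of the measured members). In such bulk RNA, fewer cells of a type and less RNA per cell cannot be told apart. Itgam, the adhesion receptor chain of neutrophils and macrophages, had a level of 6.48 on day 14 and 11.06 on day 1, against 7.29 and 8.30 in sham, a difference of -3.56. Of 22 neutrophil genes on the array, 17 were above background in injured muscle on each day. Ctsg, Fpr1 and Ngp were above background on neither day, Camp, a granule peptide, and Mmp8 (neutrophil collagenase) were not on day 14, and Cxcr1 and Ltf were not on day 1.

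The macrophage list was lower for 18 of 26 measured members and higher for 4, with a median of -1.43. Its summed injured level was 112000 on day 14 and 270000 on day 1, and 26 and 27 of its 27 genes on the array were above background. Spp1 (osteopontin) had a level of 11.19 on day 14 and 14.96 on day 1, against 15.60 and 14.88 in sham, a difference of -4.50 that is a bound because of saturation. The scavenger receptor Msr1 differed by -3.21, the inhibitory Fc receptor Fcgr2b by -2.99, Cd163, a haemoglobin receptor of resident-type macrophages, by -2.05, and the general marker Cd68 by -0.50. The higher members went against the list: the complement genes C1qa (3.91), C1qb (3.40) and C1qc (2.83), and the Fc receptor Fcgr3a (2.05).

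The sham muscle itself held transcripts of these genes. Spp1 was at 15.60 and 14.88 in the sham channels and Ccl2 at 13.47 and 12.84, above the injured level of day 14 in both cases (10.92 for Ccl2). A ratio below sham on day 14 is therefore set against a sham muscle in which these genes were well above background. For Ccl2 the ratio was 2.08, -0.13, -1.04 and -2.56 on days 1, 3, 7 and 14.

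Chemokines and cytokines split into early and late members, 11 lower and 7 higher of 31 measured, with a median of -0.44. The neutrophil attractants Cxcl1 (-3.55), Cxcl2 (-2.66) and Cxcl3 (-2.62) and the cytokine Il1b (-1.62) were among the lower ones. The T-cell attractant Ccl5 differed by 3.50 and the B-cell attractant Cxcl13 by 2.81, with a level of 12.81 on day 14 and 9.87 on day 1, against 8.80 and 8.66 in sham. Tgfb1 (-0.61) and Tgfb3 (2.50), isoforms of the same growth factor, lay on opposite sides of 0. Cxcl10, an interferon-induced chemokine, was far above sham on both days, with log2 ratios of 3.12 on day 14 and 2.45 on day 1.

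Lymphocyte genes were higher, 7 of the 11 measured against 2 lower, with a median of 1.5. Cd3g and Cd3d, chains of the T-cell receptor complex, had injured levels of 11.27 on day 14 each, 7.77 and 8.53 on day 1, and differences of 3.35 and 2.56. Both stood above sham on day 14 and close to it on day 1. The cytotoxic T-cell chains Cd8a (-2.44) and Cd8b (-1.0, and -0.88 in the injured channels) were lower. Other genes of cytotoxic cells, Nkg7 (1.61) and Gzmb (1.13), were higher, so these markers did not move together. Of 31 lymphocyte genes on the array, 28 were above background in injured muscle on day 14 and 21 on day 1. The T-cell genes Cd3e, Cd4, Cd247, Tbx21 and Ifng and the B-lineage genes Cd79b and Jchain were not above background on day 1, whereas the B-cell gene Ms4a1 and the receptor Il7r were not on either day. The summed level of the measured members was 10400 on day 14 and 5140 on day 1.

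Part of the antigen presentation genes and most complement genes were higher. In the class II pathway, which presents to helper T cells, RT1-Db1 differed by 2.51, Cd74 by 2.38 and RT1-Da by 2.32, and 4 of 9 measured genes were higher and none lower (median 0.44), while RT1-DMa was at -0.90. In class I, 5 of 15 were higher and none lower (median 0.71), among them RT1-A2 (1.53) and RT1-S3 (1.5). Genes of the RT1 complex have close copies, which a probe may not separate. In the complement list 12 of 18 measured genes were higher and 4 lower, with a median of 2.21. Cfb (factor B of the alternative pathway) had a level of 12.28 on day 14 and 8.10 on day 1, against 9.06 and 9.02 in sham, a difference of 4.14, and C1s differed by 3.85 (other probe 2.47). Among the lower members were the anaphylatoxin receptors C5ar1 (-2.72) and C3ar1 (-1.75) and the regulator Cfp (-1.04).

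The interferon response was uneven: 11 of 33 measured genes were higher and 2 lower, with a median of 0.44. Ifi27 had a level of 14.11 on day 14 and 10.64 on day 1, against 11.78 and 11.90 in sham, a difference of 3.60. Ifi27l2b differed by 3.34 with one probe and 0.04 with the other, and Bst2 (tetherin), which holds budding viruses at the cell surface, by 2.27. The antiviral genes Ifit1 and Ifit3 were lower, at -3.01 and -1.01. The core of the interferon response element, GAAA, any 2 bases and GAAA again, was searched on both strands of the same promoters and found in 13 of 22 interferon-list promoters (59.1%), 231 of 7284 of measured genes (3.17%) and 1312 of 33469 in all (3.92%). The following windows show that members with and without a difference hold it (match in capitals, gene strand, RefSeq, GRCr8, Ifi27 at chr6:128355128-128355167, plus, Bst2 at chr16:18255074-18255113, minus, Irf7 at chr1:205800068-205800107, minus, Parp14 at chr11:78408043-78408082, plus, Ifit3 at chr1:241527267-241527306, plus):
Ifi27: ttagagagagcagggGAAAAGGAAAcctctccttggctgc
Bst2: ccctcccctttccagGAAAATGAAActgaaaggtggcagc
Irf7: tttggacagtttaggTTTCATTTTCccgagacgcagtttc
Parp14: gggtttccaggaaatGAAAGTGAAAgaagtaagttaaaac
Ifit3: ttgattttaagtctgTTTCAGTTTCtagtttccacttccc
The differences of these genes were 3.60, 2.27, 1.73, -0.02 and -1.01, in the order shown.

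Most matrix genes were higher. Of 30 measured genes of collagens and their processing, 20 were higher and none lower (median 1.51), and of 39 other matrix genes 22 were higher and 2 lower (median 1.38, and 0.87 with median centring). Col3a1, the type III collagen of early scar, had a level of 15.60 on day 14 and 11.75 on day 1, against 13.00 and 14.17 in sham, a difference of at least 5.03. Col16a1 differed by 3.97. Ogn, a small leucine-rich proteoglycan, had 12.21 and 7.06, against 9.07 and 9.08, a difference of 5.16 (other probe 4.12), and Postn (periostin), a matrix protein of wounds, differed by 4.43. The provisional-matrix proteoglycan Vcan (-2.71) and the hyaluronan synthase Has1 (-1.34) were lower.

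The enzymes that cut matrix split by member, 8 higher and 9 lower of 30 measured. Mmp14, which activates Mmp2, differed by 3.76, Mmp2 by 2.79 (other probe 1.70) and the collagen-degrading cathepsin Ctsk by 2.79. Mmp3, Adam8 (-2.94) and the inhibitor Timp1 (-1.90) were lower. In the list of growth factor signals 9 of 25 measured genes were higher and none lower (median 0.38). The Wnt-binding Sfrp4 differed by 4.24 (other probe 3.02), Sfrp2 by 3.81 (2.12 and 2.84) and Igfbp5, which binds insulin-like growth factors, by 3.74, whereas the related Igfbp3 (0.47) and the antagonists Nog (0.24) and Fst (-0.83) stayed under 2-fold.

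**Figure D4:**
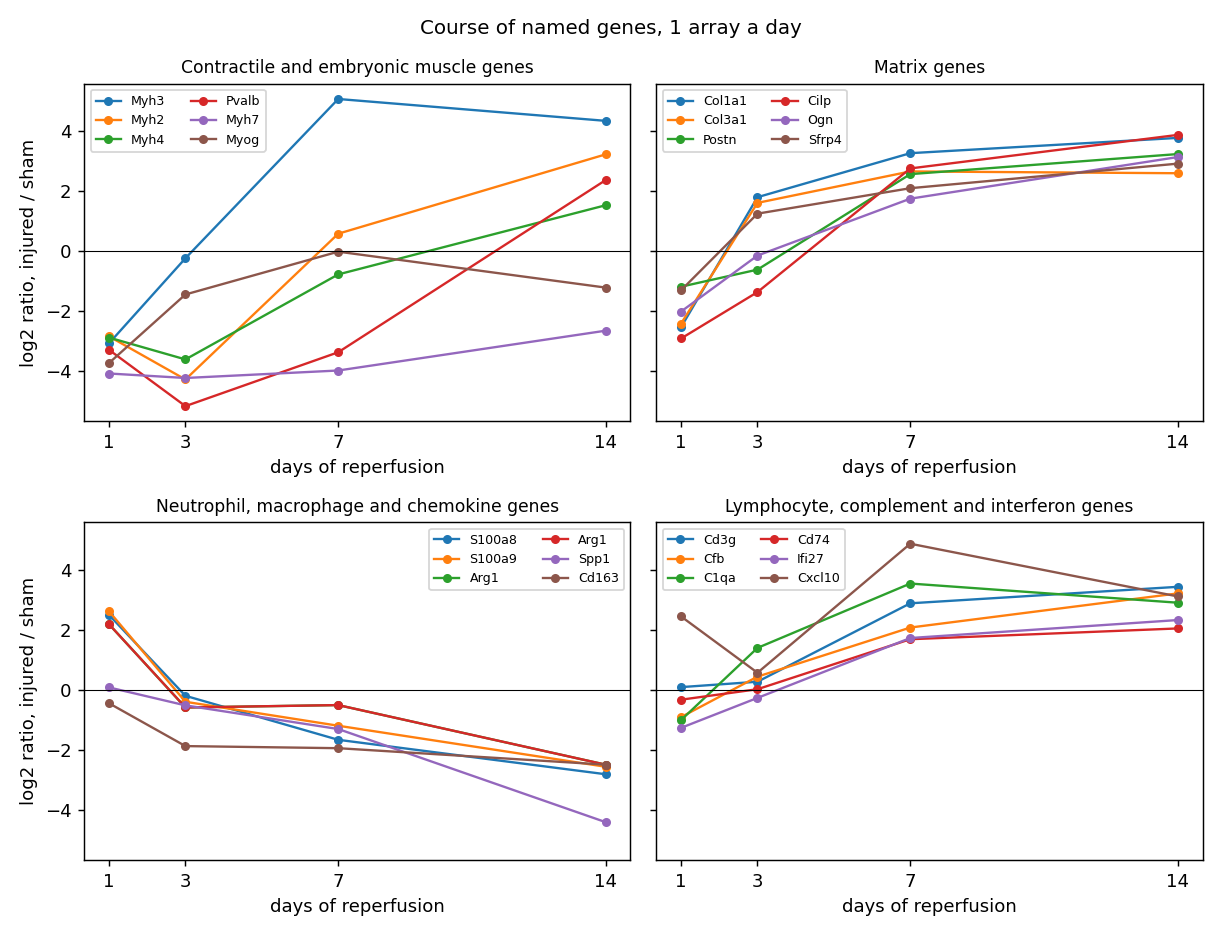
Log2 ratio of injured to sham muscle on days 1, 3, 7 and 14 of reperfusion for named genes, 1 array a day, with the line at 0 marking sham. Myh3 peaked at 5.08 on day 7, Pvalb was below sham until day 7 and at 2.37 on day 14, S100a8 was at 2.5 on day 1 and -2.82 on day 14, and Myh7 stayed below sham throughout.

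Of 38 measured cell-cycle genes 11 were lower and none higher, with a median of -0.73 that was -1.07 with median centring. Their median log2 ratio was 0.09, 1.08, -0.38 and -0.56 on days 1, 3, 7 and 14. It was thus near sham on day 1, highest on day 3 and below sham on day 14. The helicase subunit Mcm6 had a level of 6.91 on day 14 and 8.14 on day 1, against 8.07 and 7.53 in sham, a difference of -1.77. The mitotic kinase Ttk differed by -1.71 and cyclin D1 (Ccnd1) by -1.55. The proliferation marker Mki67 had a difference of -0.46 but 0.57 in the injured channels, since its sham level was 9.03 on day 14 and 8.0 on day 1.

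Stress genes were lower in part. In the endoplasmic reticulum list 8 of 24 measured genes were lower and 2 higher (median -0.79, and -1.37 with median centring). The lower ones were led by the chaperone Hsp90b1 (-2.02, other probe -1.72) and Creld2 (-1.81). Immediate early genes were lower for 8 of 24 and higher for 1 (median -0.60, and -1.06 with median centring). Among the lower ones were the phosphatase Dusp6 (-2.11) and Myc (-2.07). Hmox1, which degrades haem, had a level of 9.67 on day 14 and 12.85 on day 1, against 11.61 and 11.84 in sham, a difference of -2.95. Within the heat shock list, 10 of 36 were higher and 5 lower, and the small heat shock proteins of muscle Hspb3 (4.25), Hspb6 (3.22) and Hspb2 (1.86) were on the higher side.

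Of 28 measured apoptosis genes 3 were higher, Cdkn1a (1.94), Casp12 (1.52) and Gadd45a (1.16), and 4 lower, among them Fadd (-1.16) and Bax (-1.15). In the hypoxia list 2 were higher and 5 lower of 22, with a median of -0.02 that was 0.14 in the injured channels, and the peptide Apln was at -2.35 (other probe -2.23). Over all measured genes 11.3% were higher and 5.77% lower. In both lists the share of higher genes was thus near that of all genes, while the share of lower genes was above it.

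Markers of the other cells a muscle holds gave values as follows, and their part in the differences above was not tested. For comparison, 11.3% of all measured genes were higher and 5.77% lower. Endothelial genes were lower for 4 and higher for 1 of 18 measured, with summed injured levels of 14100 on day 14 and 13100 on day 1, and Prox1 and Selp were not above background on either day. Pdpn, of lymphatic vessels and some macrophages and fibroblasts, differed by -2.97. Smooth muscle and pericyte genes were higher for 8 and lower for 1 of 14, with a median of 1.14 that was 0.80 with median centring and 0.98 in the injured channels (summed levels of 41700 on day 14 and 15600 on day 1). Desmin (Des, 3.19), the highest of that list, is also a protein of skeletal fibres, whereas Cnn1 and Lmod1 were not above background on either day. Fat-cell and lipid synthesis genes were higher for 7 and lower for 3 of 20 (33700 and 19700), with Scd, a desaturase, at 3.32 and the fat-cell hormone Adipoq at 2.46, and Lep was not above background on either day.

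Nerve and Schwann-cell genes were higher for 1 and lower for 2 of 13 (5840 on day 14 and 5020 on day 1), and Gfap, Nefh and S100b were not above background on either day. Here too the shares over all measured genes were 11.3% higher and 5.77% lower. Mast-cell genes were higher for 2 of 6 (2500 and 1640), among them the protease Mcpt1 at 1.15, with Fcer1a, Mcpt3, Mcpt4 and Ms4a2 not above background on either day. Red-cell and platelet genes were higher for 3 and lower for 1 of 7 (47200 and 24500). Haemoglobin Hbb-b1 differed by 3.07 (1.89 in the injured channels) and the haem enzyme Alas2 of red-cell precursors by 1.86.

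Of 35613 genes on the array, 21625 were above background in injured muscle on both days, 1997 on day 14 alone and 1133 on day 1 alone. Over all gene probes, 66.6% passed in injured muscle on day 14 and 64.4% on day 1. For a gene that passed on a single day the fold is a bound. It is set against the gene's own signal on the dim day or the lowest signal well above background there, whichever was higher. Atp1b4, a muscle protein related to the beta subunits of the sodium pump, was at least 20.8-fold higher on day 14, with injured levels of 10.45 on day 14 and 6.07 on day 1. Ccl19 and Cxcl9, chemokines that attract T cells, were at least 10.9-fold and 9.77-fold higher, and Chodl, a lectin-like membrane protein, had injured levels of 9.34 and 5.94. On the other side, the lectin receptors of myeloid cells Clec4d and Clec4e were at least 6.08-fold and 4.45-fold lower, the myeloid membrane protein Mcemp1 at least 7.32-fold and Camp at least 4.25-fold.

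The title of the study asks for target genes of microRNA-21, a short RNA that pairs with messages through its seed, bases 2 to 8, shown in capitals (rno-miR-21-5p, RefSeq, GRCr8, chr10:71902653-71902674, minus strand):
rno-miR-21-5p: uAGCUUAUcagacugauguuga
Its own level was not measured on these arrays. Of 16 measured genes published as its targets in human or rodent cells, 3 were higher and 2 lower on day 14, with a median difference of -0.13 (0.05 over all measured genes). Among all measured genes 11.3% were higher and 5.77% lower. The lower ones were Lrrfip1 (-1.54) and the cell-cycle factor E2f1 (-1.05). The higher ones were Nfib (1.27), Acat1 (1.52) and Tpm1 (at least 3.63, with 2.11 in the injured channels), which is also a fast-fibre gene. Reck, an inhibitor of matrix proteases, differed by 0.94, and Pdcd4 by 0.21, which turned to -0.06 with median centring.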

How the data were processed

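Each array came as scanner output. Spot intensities were deposited as the mean brightness and the median of the local background, without normalization; per the file headers the software was Feature Extraction 10.5.1.1, while 9.5.3 stands in the submitters' processing notes. A LogRatio column, also deposited, holds log10 red over green as background-subtracted and dye-normalized by that software. The deposited value table holds log2 ratios, equal to it within 0.005 over 40972 probes. Positions follow rn4.

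Intensities were corrected with normexp (offset 50) and normalized by loess within each array, with control and outlier spots given no weight (R 4.3.3, limma 3.58.1). The offset makes ratios of dim genes smaller. Single-channel levels came from Aquantile normalization. The brightest probe stood for its gene. Of 41012 gene probes, 18060 were well above background in all 4 spots. Names came from accessions (10928 probes), current (1649) or older symbols (471), names without the predicted suffix (6546) and descriptions (277) matched to GRCr8. Other probes kept the file's name. No probe matched Myh1 or Pax7.

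Of the probes, 64.4%, 68.7%, 66% and 66.6% passed in injured muscle on days 1, 3, 7 and 14, and 47.3%, 41.1%, 34.7% and 46.3% in sham. Saturated spots (101 genes) give bounds. The steps were run on simulated arrays with few changed probes, as many up as down. That setting does not test the scaling on which the split of higher and lower genes depended. Named genes were the 15 highest and 15 lowest by both measures, 8 crossing in each direction, 3 per list, 6 per direction in red on 1 day, and fixed markers. Other members named were chosen after their values were seen. Genes, lists and rules were chosen with earlier results of these data known.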

Additional observations from a re-analysis of the deposited data

Results flagged for a closer look

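Genes that stood on opposite sides of sham on the 2 days deserve a closer look, since each rests on 1 array a day and the difference was not tested. At least 2-fold above sham on day 14 and at least 2-fold below it on day 1 were 159 genes, and the opposite held for 41. Among genes with a symbol, the largest upward differences of log2 ratios, day 14 minus day 1, were 7.43 for Myh3, 6.79 for Cilp, 6.61 for Ampd1, 6.51 for Ddit4l, 6.23 for Ldb3 and 6.17 for Sln, with 6.32 for Col1a1 and 6.22 for Apobec2 as lower bounds because of saturated spots. The probe described as myosin heavy chain type IIx also crossed upwards, by at least 7.46. Among genes with a symbol that crossed downwards they were -5.33 for S100a8, -5.18 for S100a9, -4.69 for Arg1, -4.63 for Ccl2 (a bound, since a spot was saturated), -4.11 for Mmp3, -3.93 for Ccl7, -3.90 for Il1rl1 and -3.60 for Pgap6.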

How the results depend on the processing

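No paired analysis was possible because each day had 1 injured and 1 sham sample, and leaving out a replicate was not possible for the same reason. With the scanner software's log ratio, 2096 genes were lower, against 901 in the analysis reported, 282 crossed sham upwards and 127 downwards. Median centring without loess gave 2187 lower genes, and median scaling of the injured channels 2685 against 1299. A 4-fold threshold left 577 higher and 116 lower genes. The counts of higher and lower genes stayed within 1.5 times under the other alternatives run (no background correction, an offset of 16, both looser filters, saturated probes left out, the mean over a gene's probes). Of 122 named genes past 2-fold, 0 of 854 values under the alternatives changed sign and 7 fell within 2-fold. Most of these genes were named for the size of their difference, and every alternative reads the same arrays. That their signs held therefore says little. Of 16 list medians past 2-fold, 0 of 48 values changed sign and 8 fell within 2-fold, in the lists of the tricarboxylic acid cycle, wasting, oxidative phosphorylation, other matrix and smooth muscle. In the other direction, median centring took the medians of the cell-cycle, endoplasmic reticulum and immediate early lists past 2-fold, to -1.07, -1.37 and -1.06. The glycolysis median was 1.03 with the scanner software's log ratio. Small values did change sign: those of Psmc6, Psmb5, Myod1, Cxcl10, Mki67 and Pdcd4, and the medians of the proteasome, protease, hypoxia and nerve lists. The software's log ratio of dim genes was larger, -6.57 for Mmp3 against -4.11. Of 2042 genes with several measured probes, 196 had probes at least 2-fold apart and 2 had probes past 2-fold in both directions.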
